A study of Mus musculus with 22 samples.

Results

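*Snhg14* and *Gm44831* are 2 of the 55406 genes listed for both colonies of this series. *Snhg14* (ENSMUSG00000100826) is the long non-coding transcript that hosts the *Snord116* and *Snord115* small nucleolar RNAs of the Prader-Willi locus, and *Gm44831* (ENSMUSG00000109575) is a predicted gene that lies within its span. Both were chosen by name from results of these same libraries, in which they were far lower in PWS-cr brains, so the PWS-cr values are given below as a description with no test. Tests are reserved for the PWS-IC comparison, for sex, and for the 2 wild-type groups. The study also lists *Snhg14* among the genes changed in PWS-IC brains, so the PWS-IC test of *Snhg14* is a second look at a published call on these data. The same may hold for *Gm44831*. The study names it among the genes changed in PWS-cr and reports that differentially expressed genes were shared between the models. Its text does not say whether *Gm44831* was one of those shared.

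RNA was sequenced from whole brains of newborn mice at postnatal day 0. The 6 PWS-cr pups carried a heterozygous deletion of the critical interval on the paternal chromosome (Snord116tm1Uta), and their 5 wild-type littermates are called WT-cr here. The 4 PWS-IC pups carried a deletion of the imprinting centre, also on the paternal chromosome, and their 5 wild-type littermates are called WT-IC. All groups shared intact maternal chromosomes, the labels do not name the strain, and the 4 PWS-IC pups were labelled female whereas 4 of the 5 WT-IC pups were labelled male. In bulk tissue, fewer cells of a type and less RNA per cell cannot be told apart.

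The Prader-Willi locus is imprinted: the host transcript and its snoRNAs are made from the paternal chromosome in brain, and their maternal copies are silenced. Transcription of the host transcript starts near the imprinting centre, passes through the *Snord116* copies and *Ipw*, then through the *Snord115* copies, and in neurons continues on the strand opposite *Ube3a*, where it is known for silencing the paternal copy of that gene. The snoRNAs are cut out of the host's introns, and the exons are spliced into a polyadenylated RNA that an mRNA library can capture.

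In the GENCODE M21 annotation (mm10), *Snhg14* runs on the minus strand of chromosome 7 from 59307924 to 59975759, a span of 668 kb. Its 15 annotated transcripts merge into 65 exon blocks with 26093 exon bases, 3.91% of the span. RefSeq places the start of *Snhg14* 474 kb further upstream, at the start it also gives for *Snrpn*. *Gm44831* is a single exon of 2989 bases at 59627688 to 59630676 on the same strand, of the class TEC (a predicted transcript still to be checked by experiment), and 0 of its bases are shared with *Snhg14* exons. It lies 345 kb downstream of the annotated *Snhg14* start, 42.8 kb past the last *Snord116* copy and 8.59 kb before the first *Snord115* copy, within the RefSeq span of *Ipw* (59619158 to 59678878). Per the study's account of the PWS-cr deletion, the interval lost holds the *Snord116* copies and most *Ipw* exons.

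Sequences of both snoRNA families and of *Gm44831* are shown because the counts given below follow these parts of the locus. *Snord116l1* (chr7:59894620-59894713, minus strand, mm10) is given as its transcript, with the C box and the D box that define this class of snoRNA in capitals, and 30 of the 71 annotated copies of its family had the identical sequence. *Gm26498* (chr7:59386081-59386159, minus strand, mm10) is a copy of the *Snord115* family, which had 136 annotated copies, with the same boxes in capitals. The *Gm44831* sequence is the first 240 bases of its annotated transcript (chr7:59630437-59630676, minus strand, mm10). The last line is the 50-base stretch found most often in *Snhg14* exons, at 11 positions, of which 1 is chr7:59859649-59859698.
Snord116l1: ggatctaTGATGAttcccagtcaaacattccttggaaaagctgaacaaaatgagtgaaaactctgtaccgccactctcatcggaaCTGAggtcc
Gm26498: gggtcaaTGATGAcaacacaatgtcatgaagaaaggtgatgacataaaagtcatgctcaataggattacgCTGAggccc
Gm44831: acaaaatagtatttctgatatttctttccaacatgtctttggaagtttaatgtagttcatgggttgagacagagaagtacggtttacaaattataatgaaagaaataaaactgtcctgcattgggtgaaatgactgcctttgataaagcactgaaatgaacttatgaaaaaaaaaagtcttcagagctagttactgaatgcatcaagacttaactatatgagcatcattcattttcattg
Snhg14 repeat: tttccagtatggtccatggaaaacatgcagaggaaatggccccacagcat

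The exons of *Snhg14* were spread unevenly over these parts. Upstream of the first *Snord116* copy lay 30.1% of the exon bases, the *Snord116* array held 27.7%, the stretch between the arrays 8.16%, the *Snord115* array 8.57% and the end beyond it 25.4%. Repeats were restricted to the arrays: 29.6% of the 50-base stretches that start in exons of the *Snord116* array and 30.6% of those in the *Snord115* array occurred more than once in *Snhg14* exons, against 0% in the other 3 parts. Counts were made per gene, so the part of *Snhg14* from which a library's reads came was not analysed here.

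Library depth was 45798407 to 62103143 counts in genes, and 2 libraries stood against their labels. The library labelled 1_3_IC (PWS-IC, female) had 18116 counts of *Snrpn*, a paternally expressed gene of the locus, and 3191 counts of the Y-linked *Eif2s3y*. The library labelled 1_7_IC (WT-IC, male) had 343 counts of *Snrpn* and 9 of *Eif2s3y*. The other 3 PWS-IC libraries had 255 to 425 counts of *Snrpn*, and the other 4 WT-IC libraries had 12281 to 16556. The PWS-IC tests are therefore given with and without these libraries, and each other PWS-IC value states which libraries it covers. Neuronal markers (10 of 10 detected in every library) summed to 7936 to 9394 CPM in PWS-IC and 8080 to 8710 CPM in WT-IC, as labelled. They summed to 7855 to 8331 CPM in PWS-cr and 7496 to 8298 CPM in WT-cr. The pituitary and caudal hindbrain lists stayed under 27 CPM in every library. The caudal hindbrain list varied widely below that bound. It had 26.9 CPM in 1_3_IC, 16.3 in 1_10_IC and 16.1 in 1_1_IC, but 0.333 in 4_5_IC and 0.037 in 1_5_IC. Choroid plexus markers summed to 1313 CPM in 1_3_IC, against 471 to 580 CPM in the other 3 PWS-IC libraries and 547 to 735 CPM in WT-IC. The part of these differences in the results was not tested.

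*Snhg14* was lower in PWS-cr brains but not lost. As CPM (counts scaled to library size by the TMM method), it had 45.8, 46.5, 48.3, 46.9, 41.3 and 46.1 in the PWS-cr libraries 1_1_Cr, 1_2_Cr, 1_5_Cr, 2_2_Cr, 3_5_Cr and 4_3_Cr, against 131, 152, 149, 142 and 157 in the WT-cr libraries 1_3_Cr, 3_1_Cr, 3_6_Cr, 4_1_Cr and 4_2_Cr. The groups did not overlap, and each was narrow: 45.8 ± 2.39 CPM in PWS-cr (SD, n = 6) and 146 ± 10.2 CPM in WT-cr (SD, n = 5). The PWS-cr mean was 31.4% of the WT-cr mean. Within litters it was 35.9% in litter 1, 27.4% in litter 3 and 30.9% in litter 4, and litter 2 had a PWS-cr library only. The fitted log2 fold change was −1.67 (SE 0.065). Of 22172 genes tested in this colony, 0.00902% were called lower at an adjusted p under 0.05 (edgeR's quasi-likelihood test), and since these 2 genes were chosen on that contrast, nothing is read from it.

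*Gm44831* was all but absent from PWS-cr brains. The PWS-cr library 2_2_Cr held 1 count and the other 5 held 0, against 239, 247, 296, 254 and 229 counts in the WT-cr libraries 1_3_Cr, 3_1_Cr, 3_6_Cr, 4_1_Cr and 4_2_Cr. A count of 0 at this depth allows up to 3 counts, or 0.0547 to 0.0655 CPM in a PWS-cr library, against 4.74 ± 0.315 CPM in WT-cr (SD, n = 5). Pooled over libraries, the rate in PWS-cr was 0.0677% of that in WT-cr (95% exact interval 0.00171% to 0.378%, counting error only). In WT-cr brains the coefficient of variation between pups was 6.63% for *Gm44831*, where counting error alone gives 6.29%, and 6.97% for *Snhg14*, where it gives 1.13%.

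In PWS-IC brains both genes were low outside the library labelled 1_3_IC, and *Gm44831* remained countable. *Snhg14* had 24.5, 18.8 and 22.9 CPM in the PWS-IC libraries 1_10_IC, 4_4_IC and 4_5_IC and 72.2 CPM in the library labelled 1_3_IC, against 157, 170, 212 and 209 CPM in the WT-IC libraries 1_1_IC, 1_5_IC, 4_3_IC and 4_6_IC and 18.9 CPM in the library labelled 1_7_IC. The 1_7_IC value lay within the PWS-IC range, whereas that of 1_3_IC lay between the groups, above every other PWS-IC library and below every other WT-IC library. *Gm44831* had 20, 12 and 14 counts in 1_10_IC, 4_4_IC and 4_5_IC and 145 in 1_3_IC, against 206, 260, 241 and 205 counts in 1_1_IC, 1_5_IC, 4_3_IC and 4_6_IC and 20 in 1_7_IC. For both genes, scaled to library size, 1_3_IC thus lay between the groups and 1_7_IC within the range of the other PWS-IC libraries.

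With the 9 libraries as labelled, neither gene passed the test. The log2 fold change was −2.17 for *Snhg14* (SE 0.649, adjusted p = 0.565, edgeR) and −1.999 for *Gm44831* (SE 0.895, adjusted p = 0.565, edgeR). In this fit edgeR called 0 of 22367 genes (0% lower), DESeq2 called 1, and 1840 genes (8.23%) had an unadjusted p under 0.05. The study, with genotype and litter in DESeq2, lists *Snhg14* as changed in PWS-IC brains. That call did not recur with the libraries as labelled, where *Snhg14* had an adjusted p of 0.396 in DESeq2. The reason for the difference was not tested. Over the 7 libraries other than 1_3_IC and 1_7_IC, a set chosen after the values were seen, both genes fell. The libraries left out had been set apart by *Eif2s3y* and by *Snrpn*, which RefSeq starts at the same base as *Snhg14*. That choice is tied to the locus tested, so p values over the 7 libraries are not independent of it for genes of this locus. *Snhg14* averaged 22.0 ± 2.95 CPM in PWS-IC (SD, n = 3) and 187 ± 27.7 CPM in WT-IC (SD, n = 4). The 3 PWS-IC libraries lay below every WT-IC library, and the fitted log2 value was −3.10 with an SE of 0.122 (adjusted p = 7.77e-08, edgeR). *Gm44831* averaged 0.278 ± 0.091 CPM in PWS-IC (SD, n = 3) and 4.14 ± 0.534 CPM in WT-IC (SD, n = 4). These groups did not overlap either, and the fitted log2 value was −3.87 with an SE of 0.217 (adjusted p = 2.12e-06, edgeR). In that fit 0.16% of 21913 genes were called lower. The sets differ in sex by label, with 3 females in PWS-IC against 1 female and 3 males in WT-IC. With sex in the model over the 7 libraries, the log2 fold changes were −2.86 for *Snhg14* (adjusted p = 1.33e-05, edgeR) and −3.44 for *Gm44831* (adjusted p = 0.000138, edgeR). As labelled, they were −2.20 for *Snhg14* (adjusted p = 0.834, edgeR) and −1.68 for *Gm44831* (adjusted p = 0.838, edgeR). In litter 4 the labels give only females in PWS-IC and only males in WT-IC. Both fits with sex thus separate it from genotype through a single pup, the wild-type female 1_1_IC of litter 1.

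**Figure D1:**
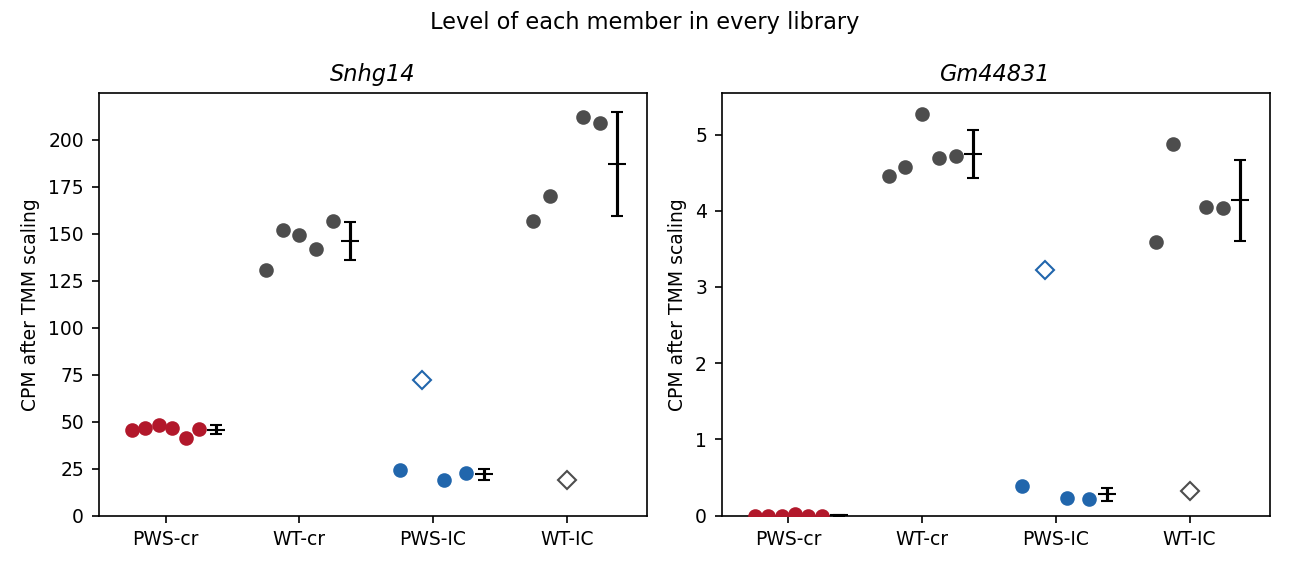
CPM after TMM scaling (y axis) of *Snhg14* (left) and *Gm44831* (right) in each library by group (x axis); open diamonds are the libraries labelled 1_3_IC and 1_7_IC, and black bars are the mean and SD of the other libraries. *Gm44831* lies at or next to 0 in the PWS-cr libraries and at 0.222 to 0.383 CPM in the 3 PWS-IC libraries drawn as filled points, while *Snhg14* keeps 41.3 to 48.3 CPM in PWS-cr.

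Over the 7 libraries, the level that remained ran in opposite order for the 2 genes. The PWS-IC mean over the 7 libraries was 11.8% of the WT-IC mean for *Snhg14*, against 31.4% of WT-cr in the PWS-cr model. For *Gm44831* it was 6.72% of the WT-IC mean, against the pooled 0.0677% of WT-cr in the PWS-cr model. With the 9 libraries as labelled, the PWS-IC share was 22.5% for *Snhg14* and 30.0% for *Gm44831*. Within litters and over the 7 libraries, it was 14.9% in litter 1 and 9.89% in litter 4 for *Snhg14*, and 9.05% in litter 1 and 5.58% in litter 4 for *Gm44831*. As labelled, litter 1, which holds 1_3_IC and 1_7_IC, gave 41.9% for *Snhg14*, above the 31.4% of PWS-cr, and 61.4% for *Gm44831*. The difference between the models was not tested, since the PWS-cr values chose the genes. Red blood cell markers also differed between the PWS-IC groups, and their part in the result was not tested: 5 of 5 were detected in every library, and their sum was 441 to 682 CPM in the 3 PWS-IC libraries, against 138 to 329 CPM in the 4 WT-IC libraries. As labelled the groups overlapped, with 403 CPM in 1_3_IC and 1014 CPM in 1_7_IC.

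Per length, *Gm44831* was the weaker of the pair wherever both were measured. On the deposited FPKM scale, *Snhg14* was at 1.77 ± 0.09 in PWS-cr (SD, n = 6), 5.66 ± 0.414 in WT-cr (SD, n = 5), 0.838 ± 0.094 in PWS-IC (SD, n = 3) and 7.16 ± 1.15 in WT-IC (SD, n = 4). The FPKM level of *Gm44831* was 1.60 ± 0.108 in WT-cr (SD, n = 5), 0.092 ± 0.026 in PWS-IC (SD, n = 3) and 1.38 ± 0.188 in WT-IC (SD, n = 4). Left out of these means, the library labelled 1_3_IC had 2.54 FPKM of *Snhg14* and 0.989 FPKM of *Gm44831*, and the one labelled 1_7_IC had 0.728 FPKM of *Snhg14* and 0.111 FPKM of *Gm44831*. Among genes listed above 0 FPKM, *Snhg14* ranked at percentile 62.6 to 66.6 in PWS-cr and 77.7 to 80.2 in WT-cr libraries. *Gm44831* ranked at percentile 22.3 to 29.8 in the 3 PWS-IC libraries and 59.7 to 62.5 in the 4 WT-IC libraries, and as labelled at 22.3 to 56.1 in PWS-IC and 27.7 to 62.5 in WT-IC.

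The balance between the 2 genes was measured as *Gm44831* counts per 1000 *Snhg14* counts, a ratio within a library that needs no scaling. It was 15.7 in 1_10_IC (95% Wilson interval 10.1 to 24.3), 12.2 in 4_4_IC (6.95 to 21.4) and 9.69 in 4_5_IC (5.76 to 16.3), against 22.9 in 1_1_IC (19.9 to 26.2), 28.6 in 1_5_IC (25.3 to 32.4), 19.1 in 4_3_IC (16.8 to 21.7) and 19.3 in 4_6_IC (16.8 to 22.1). The 3 PWS-IC libraries lay below these 4 WT-IC libraries, and so did the PWS-IC libraries of each litter when set against their own wild-type littermates. The intervals of 1_10_IC and 4_4_IC overlapped those of some WT-IC libraries. The library labelled 1_7_IC had 17.4 (11.2 to 27.0), between the other PWS-IC and WT-IC libraries, and the one labelled 1_3_IC had 44.6 (37.8 to 52.7), the highest of all 20 libraries. In 1_3_IC the median log2 deviation of genes with 8000 or more exon bases, minus that of genes with under 2000, was −0.357, against −0.054 to 0.070 in the other 8 libraries of the colony. The part of this in its ratio, and in its intermediate *Snhg14* level, was not tested.

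As labelled, the ratio averaged 20.5 ± 16.2 in PWS-IC (SD, n = 4) and 21.5 ± 4.48 in WT-IC (SD, n = 5), a difference of −0.922 (exact permutation test, two-sided p = 0.968). Over the 7 libraries it averaged 12.5 ± 3.00 in PWS-IC (SD, n = 3) and 22.5 ± 4.47 in WT-IC (SD, n = 4), a difference of −9.95 (exact permutation test, two-sided p = 0.0571, the smallest that 3 against 4 libraries can give). With 1_3_IC alone left out, the difference was −8.94 (exact permutation test, two-sided p = 0.0357, the smallest that 3 against 5 libraries can give). That was the only one of these sets past the threshold, and it counts 1_7_IC as wild type. These tests exchange pups across litters. With exchanges kept within litters, a test added after the values were seen, the two-sided exact permutation p was 0.967 as labelled, 0.0833 without 1_3_IC and 0.111 without both libraries, the last 2 being the smallest that those arrangements can give.

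**Figure D2:**
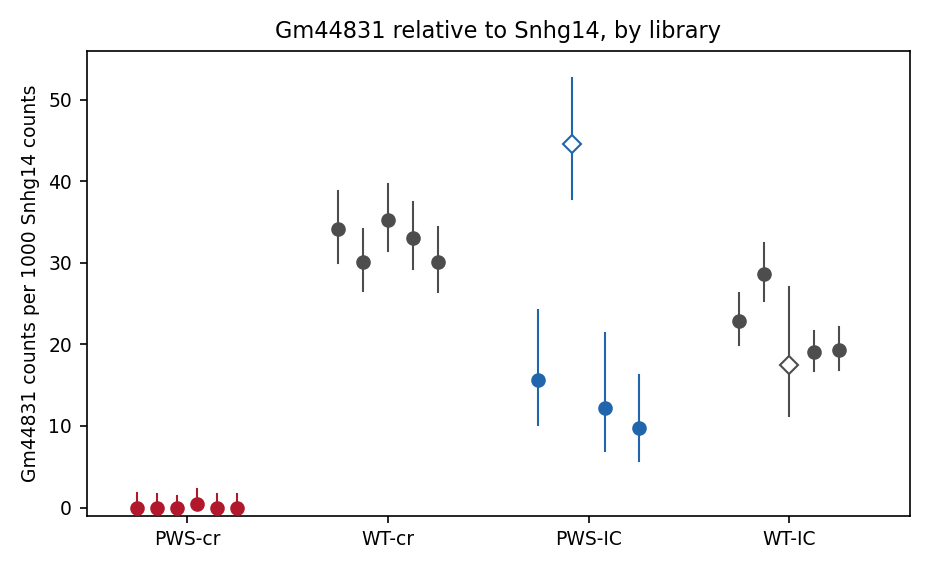
*Gm44831* counts per 1000 *Snhg14* counts (y axis) in each library by group (x axis), with 95% Wilson intervals for counting error as vertical lines; open diamonds are the libraries labelled 1_3_IC and 1_7_IC. The WT-cr libraries lie at 30.1 to 35.3, the 5 WT-IC libraries at 17.4 to 28.6, and the 3 PWS-IC libraries drawn as filled points at 9.69 to 15.7.

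The wild-type groups of the 2 colonies differed in this ratio. It averaged 21.5 ± 4.48 in WT-IC (SD, n = 5) and 32.6 ± 2.34 in WT-cr (SD, n = 5), a difference of −11.1 (exact permutation test, two-sided p = 0.00794, the smallest that 5 against 5 can give), and the groups did not overlap. Without 1_7_IC the difference was −10.1 (exact permutation test, two-sided p = 0.0159, the smallest that 4 against 5 can give). The 2 *p* values of the designed ratio comparisons, adjusted over both by the Benjamini-Hochberg method, were 0.968 for PWS-IC against WT-IC as labelled and 0.0159 for WT-IC against WT-cr. The colonies were also separate litters, so colony and litter cannot be told apart. The 5 WT-IC pups came from 2 litters and the 5 WT-cr pups from 3. Littermates are not independent, and the test exchanges single pups, so its p values treat them as separate replicates and can be too small.

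Taken gene by gene, neither wild-type level passed the test over the 10 libraries. The log2 difference of WT-IC over WT-cr was 0.06 for *Snhg14* (SE 0.406, adjusted p = 0.936, edgeR) and −0.51 for *Gm44831* (SE 0.401, adjusted p = 0.410, edgeR), in a fit that called 23.1% of 22613 genes. Without 1_7_IC, *Snhg14* was higher in WT-IC by 0.36 (SE 0.09, adjusted p = 0.0135, edgeR), and *Gm44831* had −0.20 (SE 0.108, adjusted p = 0.216, edgeR), where 21.1% of 22260 genes were called. These fits have colony as their only term and likewise take littermates as independent. Within WT-IC the *Snhg14* level also ran by litter: 157 and 170 CPM in 1_1_IC and 1_5_IC of litter 1, and 212 and 209 CPM in 4_3_IC and 4_6_IC of litter 4. *Gm44831* did not follow it, with 3.59 and 4.87 CPM in the libraries of litter 1 and 4.05 and 4.04 CPM in those of litter 4.

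For sex, the log2 difference of males over females in the PWS-cr colony was 0.00 for *Snhg14* (SE 0.063, adjusted p = 1.00, edgeR), where 0.0316% of 22172 genes were called, so no difference was detectable for this gene. For *Gm44831* the test has little to compare. PWS-cr pups have next to no counts and litter is in the model, so the fitted −0.21 (SE 0.243, adjusted p = 1.00, edgeR) comes from litter 3, the only litter with wild-type pups of both sexes, with 247 counts in the male 3_1_Cr and 296 in the female 3_6_Cr.

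Of the snoRNA families on either side of *Gm44831*, *Snord116* was at or near 0 counts in PWS-cr and in PWS-IC, and *Snord115* was near 0 in PWS-IC but not in PWS-cr. Counts assigned to the 71 annotated *Snord116* copies summed to 0 in 6 of 6 PWS-cr libraries, against 7, 11, 8, 19 and 18 in the WT-cr libraries. Counts of the 136 *Snord115* copies summed to 108, 138, 144, 164, 111 and 128 in the PWS-cr libraries, against 128, 138, 133, 151 and 133 in the WT-cr libraries. The *Snord116* counts were thus gone and the *Snord115* counts overlapped those of wild-type pups. Few *Snord115* copies held counts: 27 of the 136 in PWS-cr and 24 in WT-cr. A large part was assigned to 1 copy, *Gm24966*, with 70 to 122 counts in PWS-cr libraries and 92 to 108 in WT-cr libraries. The overlap of the *Snord115* sums thus rests largely on that copy.

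In PWS-IC both families were low. *Snord116* copies summed to 0, 1 and 3 counts in 1_10_IC, 4_4_IC and 4_5_IC, against 29, 33, 50 and 44 in 1_1_IC, 1_5_IC, 4_3_IC and 4_6_IC. *Snord115* copies summed to 8, 7 and 11 counts in the same PWS-IC libraries, against 134, 136, 236 and 186 in the same WT-IC libraries. The library labelled 1_7_IC had 3 counts of *Snord116* and 7 of *Snord115*, and the one labelled 1_3_IC had 3 and 35. These RNAs are short and not polyadenylated, so their counts in a library of polyadenylated RNA need not measure their level. Near-identical copies cannot be told apart by reads, so the sums are given, and counts of a single copy are those assigned to it. By qPCR, a different measure, the study reported both families as significantly reduced in PWS-IC whole brain at this age.

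**Figure D3:**
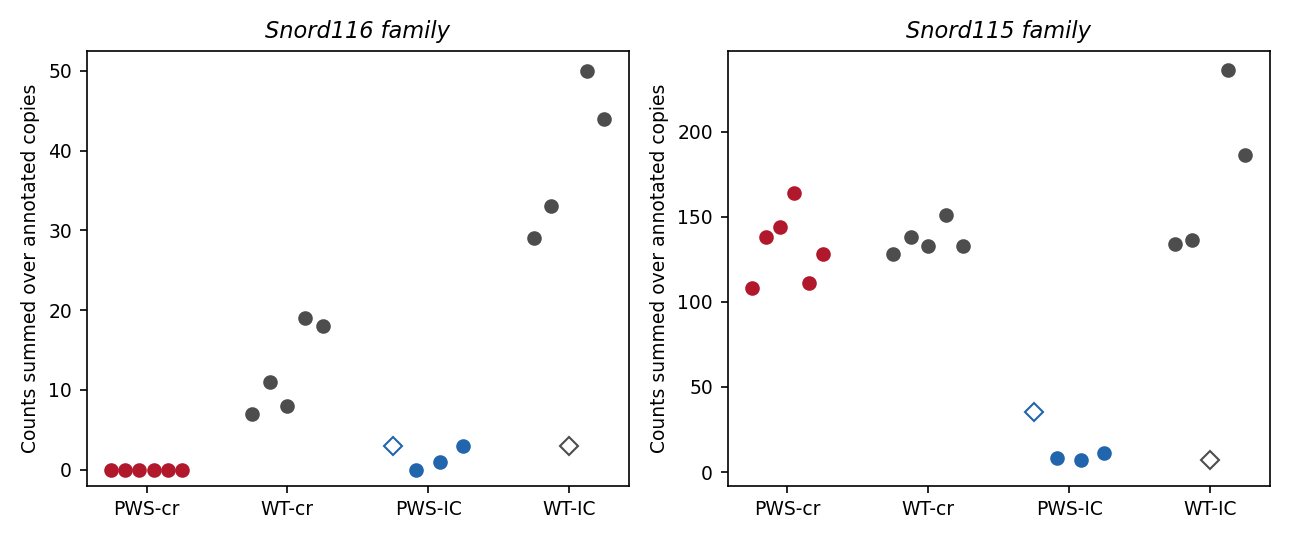
Counts summed over the annotated copies of *Snord116* (left, 71 copies) and *Snord115* (right, 136 copies) (y axes) in each library by group (x axes); open diamonds are the libraries labelled 1_3_IC and 1_7_IC. *Snord116* is at 0 in the 6 PWS-cr libraries, whose *Snord115* sums of 108 to 164 overlap the 128 to 151 of WT-cr.

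Besides *Snhg14* and *Gm44831*, 212 annotated genes overlap the *Snhg14* span, most of them snoRNA copies, and 6 had enough counts to be tested in both colonies. Of these, 4 had at least 10 counts in every library, and over the 7 PWS-IC and WT-IC libraries 2 of the 4 fell and 0 rose. In that fit 0.16% of all 21913 genes tested were called lower. *Gm38393*, a gene model that spans the annotated *Snhg14* start, fell, with a log2 value of −3.08 and an SE of 0.146 (adjusted p = 4.13e-07, edgeR). *A230103L15Rik*, a TEC transcript of the *Snhg14* strand near its 3′ end, fell too, with a log2 value of −3.56 and an SE of 0.156 (adjusted p = 2.01e-07, edgeR). The genes of the opposite strand did not pass the test: *Gm44829* had 0.25 (SE 0.192, adjusted p = 0.604, edgeR), and *Ube3a*, a maternally expressed ubiquitin ligase in neurons, had 0.10 (SE 0.060, adjusted p = 0.502, edgeR). By qPCR, a different measure, the study reported *Ube3a* as significantly overexpressed in PWS-IC whole brain at this age. The *Ube3a* counts can include reads of *Snhg14*, since reads were unstranded and the 2 genes share 1803 exon bases. With the 9 libraries as labelled, 0 of the 4 were called, with values of −2.47 for *Gm38393*, −2.03 for *A230103L15Rik*, 0.06 for *Gm44829* and −0.15 for *Ube3a*. The other 2 genes, the *Snord115* copies *Gm26498* and *Gm24966*, met the filter in this colony only through the wild-type pups, so they are given as levels with no test. *Gm26498* had 1 to 3 counts in the 3 PWS-IC libraries, against 11 to 29 in the 4 WT-IC libraries, and *Gm24966* had 0.055 ± 0.035 CPM in those PWS-IC libraries (SD, n = 3), against 1.71 ± 0.209 CPM in those WT-IC libraries (SD, n = 4).

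In PWS-cr the same genes gave other values, listed as a description. *Gm38393*, upstream of the *Snord116* copies, had 13.7 ± 0.629 CPM in PWS-cr (SD, n = 6) and 18.8 ± 3.09 CPM in WT-cr (SD, n = 5). *A230103L15Rik*, past the *Snord115* copies, had 83.3 ± 7.84 CPM in PWS-cr (SD, n = 6) and 54.9 ± 3.92 CPM in WT-cr (SD, n = 5). *Gm24966* had 1.68 ± 0.327 CPM in PWS-cr (SD, n = 6) and 1.90 ± 0.073 CPM in WT-cr (SD, n = 5), and *Ube3a* had 156 ± 7.10 CPM in PWS-cr (SD, n = 6) and 158 ± 8.94 CPM in WT-cr (SD, n = 5). *Gm26498*, the other *Snord115* copy, had 0.411 ± 0.106 CPM in PWS-cr (SD, n = 6) and 0.289 ± 0.086 CPM in WT-cr (SD, n = 5), and *Gm44829* had 3.59 ± 0.313 CPM in PWS-cr (SD, n = 6) and 3.21 ± 0.202 CPM in WT-cr (SD, n = 5). The 2 *Snord115* copies thus had their higher mean in different groups. Reads were unstranded, so reads of *Snhg14* and *Ube3a* cannot be told apart over the 1803 exon bases that the 2 genes share.

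**Figure D4:**
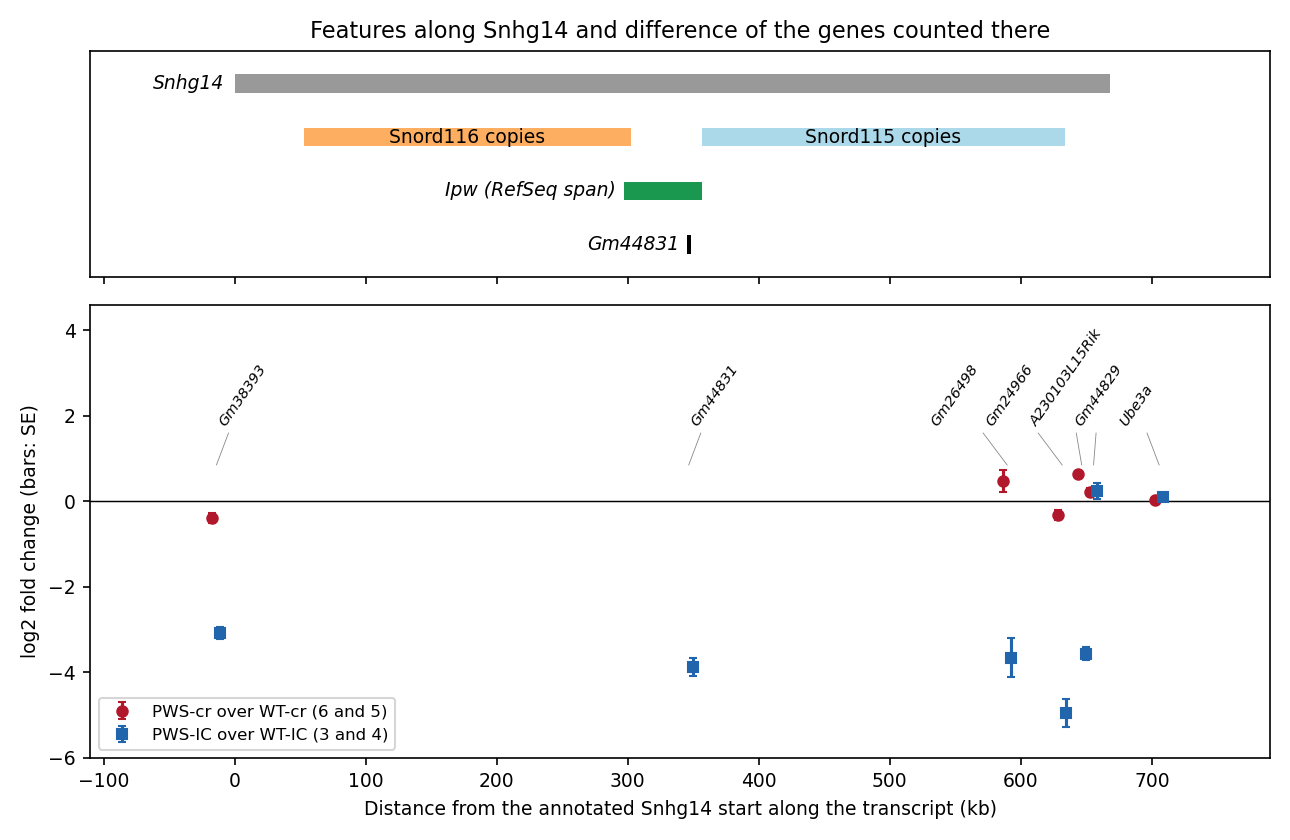
Upper panel, the extents of *Snhg14*, both snoRNA arrays, *Ipw* and *Gm44831* by distance from the annotated *Snhg14* start in kb; lower panel, log2 fold change with SE of genes counted along the span, each gene at its midpoint, in PWS-cr over WT-cr (circles, 6 and 5 libraries) and PWS-IC over WT-IC (squares, 3 and 4 libraries). *Gm44831* has no circle because PWS-cr libraries held 1 count in all. *Snhg14* itself is not plotted in the lower panel, where 5 squares lie between −3.08 and −4.95 and those of *Gm44829* and *Ube3a* lie at 0.25 and 0.10. Among the 5, the *Snord115* copies *Gm26498* and *Gm24966* rest on 1 to 3 and 2 to 5 counts per PWS-IC library. They met the filter only through the wild-type pups, so their squares are no test.

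The profile of *Snhg14* over the 20 libraries had 1 close match. The root mean square difference of centred log2 CPM from *Snhg14* was 0.525 for *Gm38393*, the nearest of the 21135 genes tested in both colonies, then 0.878 for *Gm32061*, 0.900 for *Gm9801*, 0.901 for *B230311B06Rik* and 0.930 for *Arrdc4*, where a profile with no variation would lie at 1.18. The gene nearest to *Gm44831* was *Snhg14* itself, at 2.25, followed by *Oxt* at 2.56, *Acot5* at 2.60, *Itgad* at 2.62 and *Gm26788* at 2.63, against 2.98 for a profile with no variation. The margin of the other 4 below a profile with no variation was small, and seen from *Snhg14*, *Gm44831* ranked 21067 in nearness. The libraries share genotype groups and colonies, so these distances are a description.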

How the data were processed

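Polyadenylated RNA of whole newborn brains was sequenced in pairs without strand information by the authors, who aligned them to the mouse build mm10 in STAR, obtained gene totals in featureCounts and left out 1 library per colony after clustering. Columns exist here for 20 of the 22 labelled libraries. The deposited raw counts are whole numbers per gene, and the deposited FPKM values were scaled by the authors to total counts and gene length; the length they imply is that of the GENCODE M21 exons (2989 bases for *Gm44831*). Alignments to several places were, in the study's methods, reported in random order, and how they were counted is not given in the sources used here, so repeated exons and snoRNA copies are uncertain. A further 40 columns of per-sample values (size-factor-scaled counts and TPM) and the authors' own comparison columns (mean, fold change, its error, statistic and p-values) were not used.

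The members and gene lists were chosen with earlier results of these data known. The rule for named genes was the members, genes overlapping the *Snhg14* span and tested in both colonies (at most 12), the 5 nearest centred log2 CPM profiles per member, and genes that check the labels. Counts were filtered at 10 in at least 4 libraries, scaled by TMM and tested with edgeR 4.0.16 (quasi-likelihood) in R 4.3.3, with genotype and litter in the model within each colony, sex added for the sex effect, and colony alone for the wild types; p-values were Benjamini-Hochberg adjusted over all genes tested, with a threshold of 0.05. The SE given with edgeR values was derived as the absolute log2 fold change divided by the square root of the F statistic. CPM were computed jointly over the 20 libraries. Ratios were compared by exact permutation tests over libraries (scipy 1.17.1). Alternatives used DESeq2 1.42.0, limma 3.58.1, RLE scaling, other filters and left-out libraries. The 7-library PWS-IC fit and the use of CPM differences for *Gm44831* in PWS-cr were chosen after seeing the data. The edgeR code was tested on simulated data. SnoRNA families were assigned by at most 3 mismatches to the reverse primer of each family in the study's primer table. Intervals and the limit of 3 counts cover counting error only, as the reads carry no molecular identifiers. Pups are separate animals, several per litter. Totals of 45798407 to 62103143 counts per library put the counting error of *Snhg14* well under the spread between pups; that of *Gm44831* is close to it in WT-cr and below it in WT-IC (6.62% against 12.9% without 1_7_IC). Sequences were read from the GENCODE M21 transcripts.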

Additional observations from a re-analysis of the deposited data

Results flagged for a closer look

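A library was singled out where its gap to the nearest other library of its group exceeded Dixon's 95% critical value, over 12 combinations of measure and group, of which 7 did; chance singles out about 1 in 20. In PWS-cr, 3_5_Cr was lowest in *Snhg14* at 41.3 CPM, and 2_2_Cr was highest in *Gm44831*, at 0.0186 CPM and 0.397 counts per 1000 *Snhg14* counts, which is a single count. In PWS-IC, the library labelled 1_3_IC stood apart in *Snhg14* at 72.2 CPM and in *Gm44831* at 3.22 CPM. In WT-IC, the library labelled 1_7_IC stood apart in *Snhg14* at 18.9 CPM and in *Gm44831* at 0.329 CPM. No WT-cr library was singled out in *Snhg14*, *Gm44831* or their ratio.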

How the results depend on the processing

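No paired analysis was possible because replicate numbers were given in accession order and pair no pups; litter is a term of the genotype models. With the PWS-IC libraries as labelled, genes called were 0, against 1 in DESeq2, 471 without a filter, 53 without 1_3_IC and 1_7_IC, and 0 to 1 when 1 library was left out (1 without 1_7_IC). Without a filter *Snhg14* had −2.14 and *Gm44831* −1.96, past the threshold (adjusted p = 8.45e-75 and 2.54e-13, edgeR), and without 1_3_IC and 1_7_IC −3.10 and −3.87; the cause of the calls without a filter was not tested. Leaving out 1 library gave −2.85 to −1.86 for *Snhg14* and −3.65 to −1.54 for *Gm44831*. Over the 7 libraries, *Snhg14* and *Gm44831* were called lower under all 11 alternatives run (−3.34 to −2.86 and −4.16 to −3.44), while genes called were 53, against 223 in DESeq2, 174 with sex added and 28 to 55 with 1 library left out (28 without 4_3_IC, 31 without 4_6_IC). In PWS-cr, genes called were 3, against 7 in DESeq2, 10 without a filter and 2 to 4 with 1 library left out; *Snhg14* was −1.78 to −1.58 with 1 library left out, and −1.78 without 1_3_Cr. The CPM difference of *Gm44831* stayed between −4.81 and −4.61 under 13 alternatives. For sex, genes called were 7, against 16 in DESeq2, 70 without a filter, and 7 to 42 with 1 library left out (42 without 4_3_Cr); no value for *Gm44831* could be had without 3_1_Cr or 3_6_Cr. For the wild types, *Snhg14* was called without 1_7_IC only (0.36), among −0.0855 to 0.36 with 1 library left out, and was −0.34 in limma with litter as a block. The PWS-IC against WT-IC ratio difference, as labelled, was −8.94 to 2.69 with 1 library left out, positive without 1_10_IC (0.702), 4_4_IC (1.86), 4_5_IC (2.69) or 1_5_IC (0.874), and past the threshold without 1_3_IC only, though not when genotypes were exchanged within litters (exact permutation p = 0.0833). That of WT-IC against WT-cr kept its direction and call under 12 alternatives (−12.9 to −10.1 with 1 library left out). Depth limits *Gm44831* in the PWS-IC libraries 1_10_IC, 4_4_IC and 4_5_IC, which held 12 to 20 counts each. The library labelled 1_3_IC held 145.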
